A study of Mus musculus with 12 samples.

Results

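The genes described here run the cell division cycle, from the decision to replicate DNA in G1 to the separation of the daughter cells. They are 50 genes chosen by function, in 3 classes: 32 of mitosis, 10 of DNA replication and 8 regulators of G1. A gene was found by its symbol in the platform annotation, with older symbols updated, and 47 of the 50 could be measured, out of 30702 named genes. The measured genes comprise 31 of mitosis, 9 of DNA replication and 7 of G1, and none of them has more than 1 transcript cluster, the unit of the array for 1 locus. Mcm7 and Ccnd1 lie in clusters that carry several symbols and Ccnb1 was not matched to a cluster, so these 3 genes were not analysed here.

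The samples are gonads of mouse embryos (14.5 days post coitum), with 1 pair of gonads from 1 embryo per array and 4 arrays in each of 3 groups. XY FOXL2+ gonads carried 1 copy of Sf1-cre (Sf1-cre+/Tg) and 1 of the allele Rosa26-CAG-LSL-Foxl2+/f, in which a CAG promoter drives Foxl2, the transcription factor of granulosa cells, once Cre has removed a stop cassette. XX control and XY control gonads were Rosa26+/+; Sf1-Cre+/Tg, so that every embryo carried Sf1-cre, which acts in somatic cells of the gonad and not in germ cells. The background was mixed 129Sv and C57Bl/6J, and the sources used here give no litter or batch. The embryos are biological replicates, and XY FOXL2+ and XX control gonads were both set against the same XY control arrays.

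Progress through G1 depends on cyclin D with its kinases and then on cyclin E with CDK2, which together inactivate the retinoblastoma protein and release E2F factors. The MCM helicase is loaded at replication origins by CDC6 and CDT1, and PCNA and the ribonucleotide reductase subunit RRM2 serve DNA synthesis. CDK1 with cyclins A and B drives entry into mitosis, and the CDK inhibitors p21 (Cdkn1a) and p27 (Cdkn1b) hold the cycle back. In the fetal gonad around this stage Sertoli cells of the testis keep dividing, early granulosa cells of the ovary leave the cycle with p27, XX germ cells enter meiosis and XY germ cells pause in G1. The gonads were measured whole, so fewer cells of a type and less RNA per cell cannot be told apart in any of the values below.

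The promoters were searched for elements known from cell cycle genes. Many mitotic genes are known to be repressed in resting cells through the cell cycle genes homology region (CHR, letters TTTGAA) and activated through CCAAT boxes (letters CCAAT), whereas many replication genes carry E2F sites (letters TTTCCCGC, TTTGGCGC, TTTCGCGC or TTCCCGCC were searched). Both strands were searched in windows from 250 bases before to 50 bases after the start of the gene in RefSeq, build GRCm38.p6, which held 43 windows for 39 of the 47 measured genes. E2F matches overlapped one another in some windows, and CCAAT matches on opposite strands overlapped in that of Ube2c. The CHR letters stood in 22 of 28 mitosis windows (78.6%), 1 of 8 replication windows (12.5%) and 0 of 7 G1 windows, against 17.9% of all 32851 windows. CCAAT stood in 78.6% of the mitosis windows, 75% of the replication windows and 28.6% of the G1 windows, against 37.4% of all. An E2F match stood in 1 of 28 mitosis windows (3.57%), in 5 of 8 replication windows (62.5%) and in 0 of the G1 windows, against 3.49% of all. These shares are descriptions of the letters, not of bound sites. The parts shown run up to the base before the start of the gene and are given 5′ to 3′ on its strand. Capitals mark CHR, CCAAT and E2F letters on either strand (TTCAAA and ATTGG are CHR and CCAAT on the other strand). CHR and CCAAT stood in 1 window in 12 of the 16 mitosis genes with a window that were lower in XX than in XY controls, and in 5 of the 10 that were not called, Ccnb2, Ttk, Kif23 and Ect2 among them, without a test. The CHR letters, with or without CCAAT, stood in 13 of the same 16 genes and in 7 of the same 10. The share of all windows with both was not counted. Cdk1, Cdc20 and Ube2c show CHR and CCAAT letters together, Mcm6 the E2F pattern of the replication class, and Cdkn1b the CCAAT letters of the G1 gene with the largest difference. In Mcm6, the first run of capitals is a pair of E2F matches on opposite strands that overlap.
Cdk1 (chr10:69352913-69353052, minus strand): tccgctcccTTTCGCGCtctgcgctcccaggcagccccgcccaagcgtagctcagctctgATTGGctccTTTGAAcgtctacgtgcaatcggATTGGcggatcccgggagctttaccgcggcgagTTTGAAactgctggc
Cdc20 (chr4:118437344-118437413, minus strand): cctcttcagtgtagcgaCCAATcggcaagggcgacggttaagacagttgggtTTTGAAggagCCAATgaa
Ube2c (chr2:164769829-164769928, plus strand): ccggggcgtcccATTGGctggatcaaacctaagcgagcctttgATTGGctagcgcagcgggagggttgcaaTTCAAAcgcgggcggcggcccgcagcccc
Mcm6 (chr1:128359706-128359825, minus strand): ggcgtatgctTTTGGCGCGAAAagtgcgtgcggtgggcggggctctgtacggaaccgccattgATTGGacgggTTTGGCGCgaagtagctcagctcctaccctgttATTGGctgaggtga
Cdkn1b (chr6:134920231-134920400, plus strand): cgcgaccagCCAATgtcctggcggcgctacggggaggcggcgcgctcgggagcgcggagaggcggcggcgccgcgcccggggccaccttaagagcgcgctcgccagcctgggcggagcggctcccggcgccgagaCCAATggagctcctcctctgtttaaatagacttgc

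Some arrays stood apart before any of these genes was considered. XY FOXL2+ replicate 1 lay at -76.9 on the second principal component of all clusters, against -22.1 to 22.6 for the other arrays, and XY FOXL2+ replicates 3 and 4 lay at -49.7 and -44.2 on the third, against -12.7 to 35.6. Foxl2 read 7.67, 8.62, 7.18 and 6.72 on the log2 scale in XY FOXL2+ gonads, 8.08, 7.30, 7.14 and 7.39 in XX controls and 5.07, 5.55, 5.44 and 5.33 in XY controls, so its level fitted the labels in all 12 arrays. Cell type markers were summed on the linear scale and are given in units of 1000. The 12 granulosa markers summed to 23.4, 37.9, 8.85 and 7.83 in XY FOXL2+ replicates 1 to 4, to 48.1 to 58.8 in XX controls and to 6.86 to 7.81 in XY controls. The 14 Sertoli markers summed to 9.75, 6.89, 20.4 and 18.0 in the same XY FOXL2+ arrays, to 5.86 to 6.33 in XX and to 54.1 to 66.8 in XY controls. XY FOXL2+ replicates 1 and 2 thus had higher granulosa and lower Sertoli sums than replicates 3 and 4. The 11 general germ cell markers summed to 35.2, 96.2, 67 and 75 in XY FOXL2+, with replicate 1 the lowest of all arrays, to 78.9 to 101 in XX controls and to 53.5 to 93.8 in XY controls. The 15 meiotic markers summed to 34.7, 187, 88.5 and 92.8 in XY FOXL2+, to 143 to 167 in XX and to 13 to 25.2 in XY controls. The 8 markers of XY germ cells ranged from 1.12 to 3.01 in XY FOXL2+, from 1.08 to 1.22 in XX and from 3.4 to 12.3 in XY controls. Leydig cell markers, with 4 of 7 measured, ranged from 1.38 to 18.2 in XY FOXL2+, from 1.26 to 1.67 in XX and from 428 to 530 in XY controls. Endothelial markers (8) ranged from 18.5 to 22.6 in XY FOXL2+, from 15.3 to 18.3 in XX and from 19.7 to 22.1 in XY controls, and macrophage markers (8) from 1.41 to 1.49 in XY FOXL2+, from 1.07 to 1.27 in XX and from 1.03 to 1.20 in XY controls. The 5 measured of 8 erythroid markers ranged from 17.2 to 60.5 in XY FOXL2+, from 72.8 to 100 in XX and from 32 to 102 in XY controls. By limma, 5 of 12 granulosa markers were higher, 10 of 14 Sertoli markers lower and 12 of 15 meiotic markers higher in XY FOXL2+ than in XY controls, and 12 of 12, 12 of 14 and 15 of 15 moved the same way in XX against XY controls. Foxl2, which the allele expresses, is among the 12 granulosa markers, their sums and the 5 called. Its rise in XY FOXL2+ (2.20 by limma, adjusted p = 0.00122) was set by the design. Against XX controls, XY FOXL2+ had 9 of 12 granulosa markers lower and 8 of 14 Sertoli markers higher, where 2.64% of all clusters were lower and 2.87% higher. Single general germ cell markers did not all follow their sum, in which the markers of highest signal weigh most. For XY FOXL2+ minus XY control, limma called 4 of these 11 down and 0 up, at a median log2 difference of -0.68. For XX minus XY control, 4 were down and 2 up, at a median of -0.37. For XY FOXL2+ minus XX control, 0 were called in either direction. The part of cell makeup in the results below was not tested.

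The level of each class was averaged over its genes on each array. The mean log2 level of the 31 mitosis genes was 11.92 ± 0.20 in XY FOXL2+ gonads, 11.53 ± 0.12 in XX controls and 12.05 ± 0.06 in XY controls (SD, n = 4 each). For the 9 replication genes it was 11.66 ± 0.50, 11.45 ± 0.11 and 11.36 ± 0.06 in XY FOXL2+, XX control and XY control gonads. The 7 G1 genes averaged 10.24 ± 0.32 in XY FOXL2+, 10.62 ± 0.07 in XX and 9.49 ± 0.05 in XY controls. Mitosis genes were thus lowest in the XX gonad, G1 regulators lowest in the XY control, and replication genes close to each other in the 2 controls with a wide spread in XY FOXL2+. The spread of XY FOXL2+ was the largest of the 3 groups for 23 of 31 mitosis genes, 9 of 9 replication genes and 6 of 7 G1 genes. The lowest correlation of 2 arrays of a group over all clusters was also in XY FOXL2+. It was 0.9806 there, 0.9915 in XX and 0.9858 in XY controls (Spearman). On single arrays, the replication level was 12.34, 11.72, 11.31 and 11.26 in XY FOXL2+ replicates 1 to 4, and replicate 1 held the highest value of all 12 arrays for 9 of 9 replication genes and 15 of 31 mitosis genes. Among the controls, XX replicate 1 held the lowest value of all arrays for 22 of 31 mitosis genes. XY FOXL2+ means lay between the means of the controls for 22 of 31 mitosis genes and 6 of 7 G1 genes, and above both for 8 of 9 replication genes. The counts of spread, of highest and lowest arrays and of the order of means were not made over all clusters. They are not shown to be particular to these genes.

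**Figure D1:**
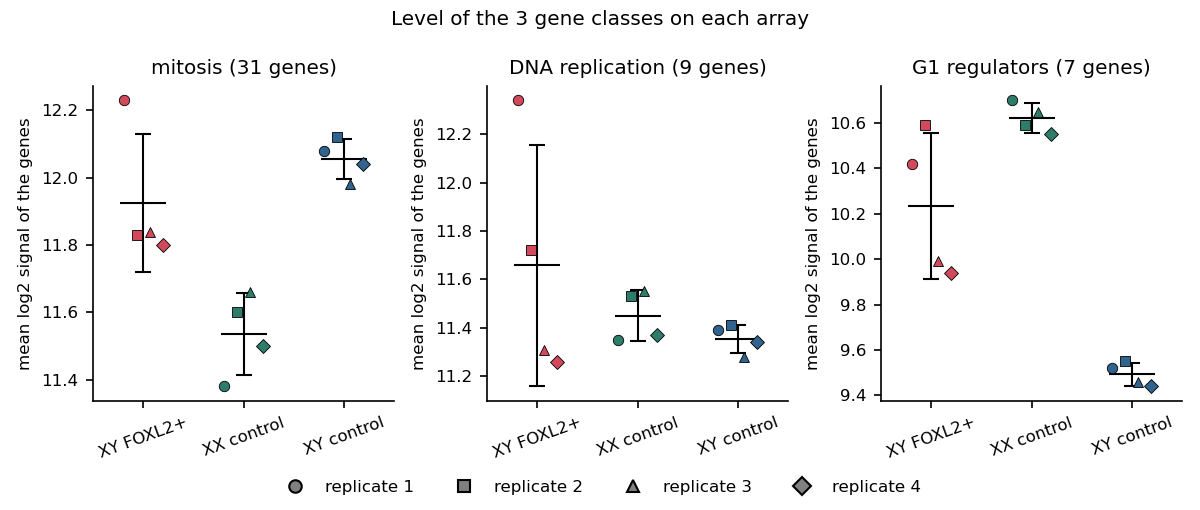
Mean log2 signal of the mitosis, DNA replication and G1 genes on each array (y axis), for XY FOXL2+, XX control and XY control gonads from left to right; each marker shape is 1 replicate and the horizontal line with its bar is the group mean ± SD. The mitosis level is 11.80 to 12.23 in XY FOXL2+, 11.38 to 11.66 in XX and 11.98 to 12.12 in XY controls, and XY FOXL2+ replicate 1 is the highest array in the mitosis and replication panels.

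In XX control gonads 4 of the 47 genes were higher and 22 lower than in XY controls at an adjusted p under 0.05 (limma, Benjamini-Hochberg over all clusters). The background is 7.17% of all 65956 clusters higher and 10.2% lower, or 12% higher and 16.6% lower among the 32978 clusters above the median signal, to which all 47 genes belong. Quantile normalization gave 6 genes higher and 18 lower in XX than in XY controls, with 6116 of the 65956 clusters higher and 5385 lower. Between XY FOXL2+ and XY control gonads 4 genes were higher and 1 was lower, against 2.46% and 4.67% of all clusters, and 3.88% and 8.06% of those above the median. XY FOXL2+ gonads had 11 genes higher and 2 lower than XX controls, against 2.87% and 2.64% of all clusters and 4.61% and 4.72% of those above the median. In all, 27 of the 47 genes passed in at least 1 comparison. Of the mitosis genes, 21 of 31 were lower in XX than in XY controls and 0 higher, with a median log2 difference of -0.49 against -0.03 over all clusters. Of the same 31 genes, XY FOXL2+ had 0 higher and 1 lower against XY controls, at a median of -0.16 against 0.003 over all clusters, and 8 reached an unadjusted p under 0.05. Against XX controls, 11 of the 31 were higher in XY FOXL2+ and 0 lower, with a median of 0.42 against 0.03 over all clusters. No replication gene passed in any of the 3 comparisons by limma, and 1 of 9, 0 of 9 and 1 of 9 reached an unadjusted p under 0.05 in XY FOXL2+ against XY control, XX against XY control and XY FOXL2+ against XX control. The share of all clusters under an unadjusted p of 0.05 was not counted. The unadjusted counts of mitosis and replication genes thus have no background to be read against. Of the G1 genes, 4 were higher and 1 lower in XX against XY controls, 4 higher and 0 lower in XY FOXL2+ against XY controls, and 0 higher and 2 lower in XY FOXL2+ against XX controls. The median difference of the 7 G1 genes was 0.57 in XY FOXL2+ against XY controls, 1.47 in XX against XY controls and -0.04 in XY FOXL2+ against XX controls, and that of the 9 replication genes was 0.29, 0.03 and 0.19 in the same comparisons.

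**Figure D2:**
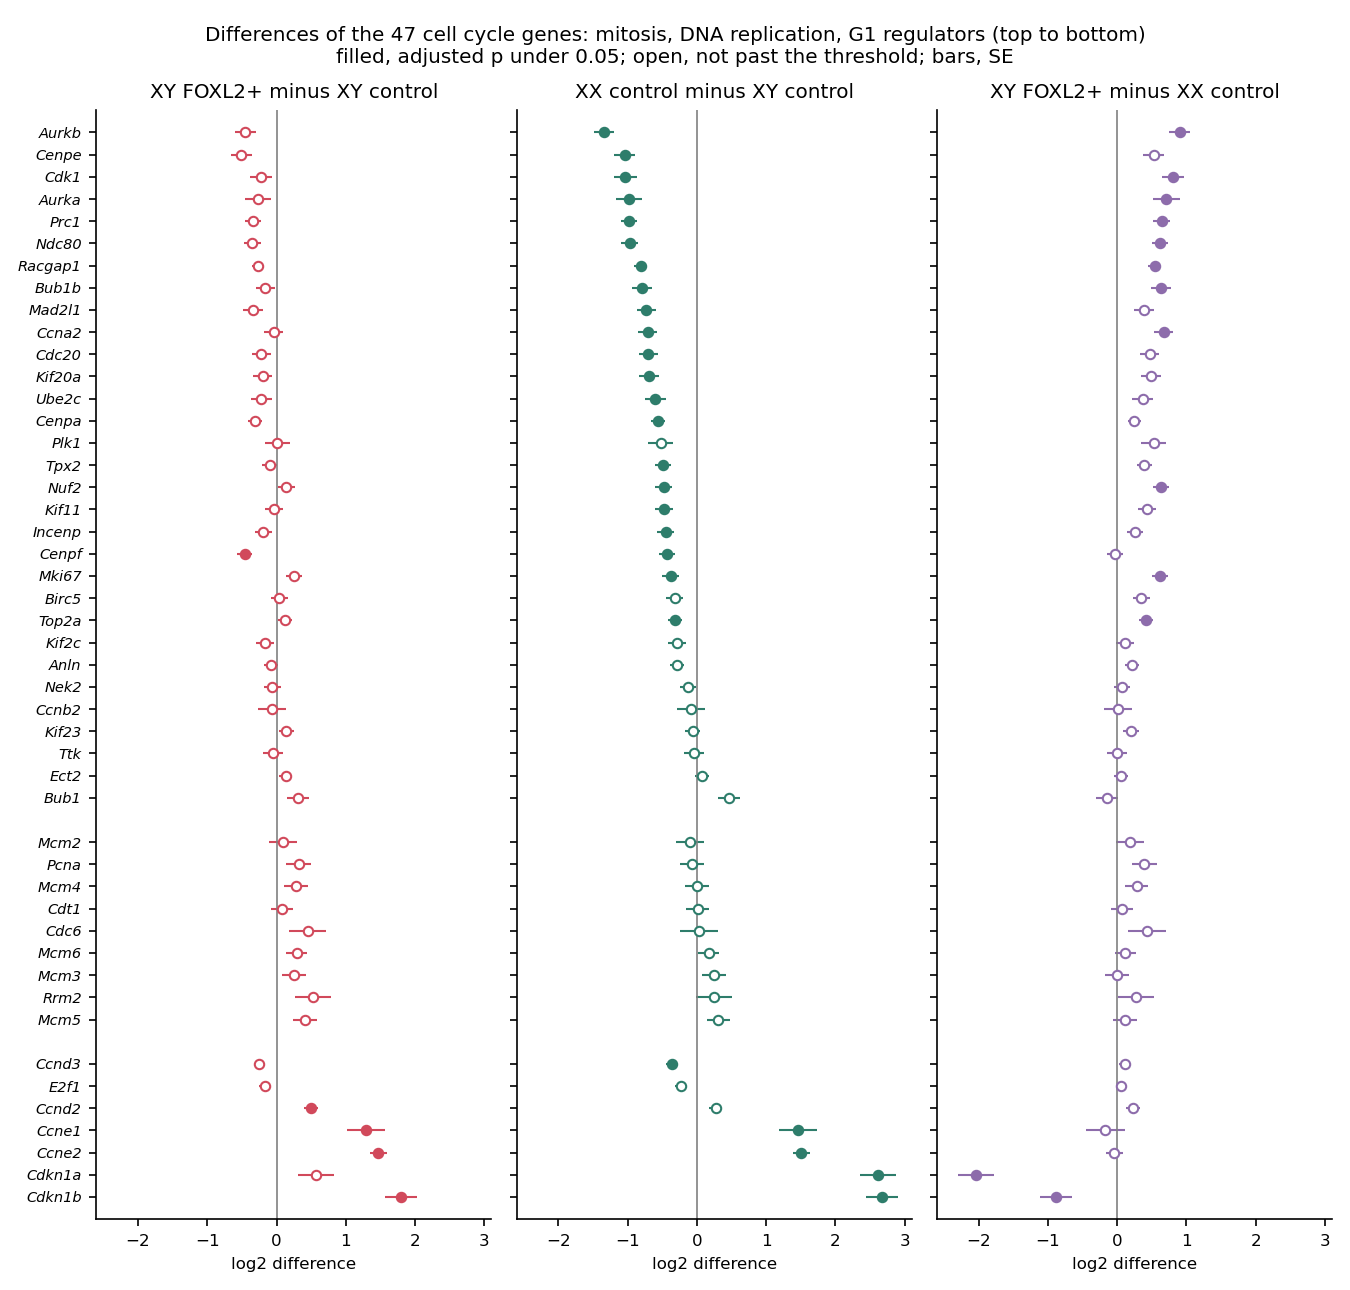
Log2 difference (x axis) of each of the 47 genes in the 3 comparisons, ordered by class, with the SE as a bar; filled points passed an adjusted p of 0.05 and open points did not. The filled points of the mitosis class lie below 0 in XX against XY controls (21 genes) and above 0 in XY FOXL2+ against XX controls (11 genes).

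Entry into mitosis was measured by 7 genes, of which 4 were lower in XX than in XY controls and 3 higher in XY FOXL2+ than in XX controls, with 0 called between XY FOXL2+ and XY controls. Cdk1, the kinase that starts mitosis, read 11.80, 10.93, 11.20 and 11.11 in XY FOXL2+ gonads, 10.31, 10.46, 10.53 and 10.51 in XX controls and 11.59, 11.58, 11.49 and 11.26 in XY controls. All XX arrays lay below all arrays of the other groups, and of the XY FOXL2+ arrays replicate 1 lay above the XY control range and the other 3 below it. Cdk1 fell by 1.03 in XX against XY controls (SE 0.16, 2.04-fold lower, adjusted p = 0.000496). It was 0.81 higher in XY FOXL2+ than in XX controls (SE 0.16, adjusted p = 0.00992), and its difference of -0.22 between XY FOXL2+ and XY controls did not pass (SE 0.16, adjusted p = 0.493). Ccna2, the cyclin A of S phase and G2, was -0.71 in XX against XY controls (adjusted p = 0.00295) and 0.67 in XY FOXL2+ against XX controls (adjusted p = 0.0139, lost when only these groups were fitted, at 0.0627). Aurka, the centrosome kinase, was -0.98 in XX against XY controls (adjusted p = 0.00282) and 0.71 in XY FOXL2+ against XX controls, where the call was at the edge (adjusted p = 0.0482, lost in 13 of 20 other settings, among them the omission of any 1 array but XY FOXL2+ replicates 1 and 2, and up to 0.136). Tpx2, the activator of Aurora A at the spindle, was -0.49 in XX against XY controls (adjusted p = 0.00728). Ccnb2, Plk1 and Nek2 passed in no comparison, and Ccnb2, a cyclin B, differed by -0.08 between XX and XY controls. Plk1 was -0.52 in XX against XY controls (SE 0.18, adjusted p = 0.0655) and 0.53 in XY FOXL2+ against XX controls (SE 0.18, adjusted p = 0.119). Every XX array lay below all arrays of the other groups for Plk1. Nek2 was -0.13 in XX against XY controls.

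Of the chromatin genes, Mki67, the source of the Ki-67 proliferation antigen, had 16.11, 15.80, 15.58 and 15.49 in XY FOXL2+ gonads, 15.01, 15.14, 15.28 and 15.06 in XX controls and 15.54, 15.59, 15.43 and 15.45 in XY controls. All XX arrays were below all others, and XY FOXL2+ replicates 1 and 2 lay above every XY control while replicates 3 and 4 lay within their range. Its level was 0.62 higher in XY FOXL2+ than in XX controls (SE 0.12, adjusted p = 0.00879), and the 0.25 against XY controls did not pass (SE 0.12, adjusted p = 0.275). The difference of -0.38 between XX and XY controls passed at an adjusted p of 0.0438 and was lost in 10 of 20 other settings, with an adjusted p up to 0.145, among them the omission of any XY control, of XY FOXL2+ replicate 2 or of XX replicate 1, 2 or 4. Top2a, the topoisomerase that untangles sister chromatids, was -0.31 in XX against XY controls (adjusted p = 0.0466), a call lost in 12 of 20 settings (up to 0.26), including the omission of XY control replicate 1 or 2, of XY FOXL2+ replicate 2, 3 or 4 or of XX replicate 1, 2 or 4. It was 0.42 in XY FOXL2+ against XX controls (adjusted p = 0.0237), a call lost in 7 of 20 settings (up to 0.104), including the omission of XY FOXL2+ replicate 3 or 4 or of XX replicate 1, 2 or 4.

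Kinetochore genes, which tie chromosomes to the spindle, had 5 of 6 members lower in XX than in XY controls. Cenpe, the kinetochore motor, read 13.08, 12.33, 12.49 and 12.55 in XY FOXL2+ gonads, 11.84, 12.22, 12.18 and 12.10 in XX controls and 13.09, 13.17, 12.97 and 13.24 in XY controls. The XX arrays lay below all XY controls and below all XY FOXL2+ arrays, and 3 of the 4 XY FOXL2+ arrays lay between the controls, with replicate 1 at the XY control level. Cenpe was -1.04 in XX against XY controls (SE 0.15, adjusted p = 0.000278), 2.05-fold lower, -0.51 in XY FOXL2+ against XY controls (SE 0.15, adjusted p = 0.0562) and 0.53 against XX controls (adjusted p = 0.0563). Cenpf, a protein of the outer kinetochore, read 12.82, 12.89, 12.79 and 12.96 in XY FOXL2+, 12.64, 13.08, 13 and 12.84 in XX controls and 13.21, 13.51, 13.17 and 13.39 in XY controls. Every XY FOXL2+ and XX array was below every XY control, and the XY FOXL2+ range lay within that of XX. It was the 1 mitosis gene to pass between XY FOXL2+ and XY controls, at -0.46 (SE 0.11, adjusted p = 0.0227, exact permutation p = 0.0286, the smallest that 4 against 4 arrays allow), and it was lost without XY control replicate 2 or 4 (adjusted p up to 0.0686). It was -0.43 in XX against XY controls (adjusted p = 0.0148) and -0.03 in XY FOXL2+ against XX controls (SE 0.11, adjusted p = 0.933). Ndc80, the microtubule-binding subunit of the kinetochore complex of that name, was -0.97 in XX against XY controls (adjusted p = 0.000143) and 0.62 in XY FOXL2+ against XX controls (adjusted p = 0.012, lost without XY FOXL2+ replicates 3 and 4, at 0.0528). Its partner Nuf2 had 0.63 in XY FOXL2+ against XX controls (adjusted p = 0.0113, lost when only these groups were fitted, at 0.05).

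The chromosomal passenger complex, which corrects faulty attachments, was led by its kinase Aurkb. Aurkb read 9.89, 8.98, 9.49 and 9.35 in XY FOXL2+, 8.42, 8.59, 8.59 and 8.54 in XX controls and 9.99, 9.83, 9.88 and 9.80 in XY controls. No XX array reached any array of the other groups, and the XY FOXL2+ arrays, replicate 1 apart, lay below all XY controls. It was the mitosis gene with the largest difference, -1.34 in XX against XY controls (SE 0.15, 2.54-fold lower, adjusted p = 4.88e-05), and 0.90 in XY FOXL2+ against XX controls (SE 0.15, 1.86-fold higher, adjusted p = 0.00415). The -0.45 between XY FOXL2+ and XY controls did not pass (adjusted p = 0.103). Of the other members, Incenp, the scaffold, was -0.45 in XX against XY controls (adjusted p = 0.016, lost without XY control replicate 1 at 0.0539) and -0.19 in XY FOXL2+ against XY controls (adjusted p = 0.405). Birc5, survivin, was -0.32, 0.04 and 0.35 in XX against XY, XY FOXL2+ against XY and XY FOXL2+ against XX controls and passed in none.

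Spindle checkpoint and anaphase genes had 4 of 6 members lower in XX than in XY controls. Bub1b, a checkpoint kinase-like protein, was -0.79 (adjusted p = 0.00107), Mad2l1, the checkpoint protein MAD2, was -0.73 (adjusted p = 0.0024), and Cdc20, the activator of the anaphase-promoting complex, was -0.70 (adjusted p = 0.00296). The fourth, Ube2c, the ubiquitin-conjugating enzyme of that complex, was -0.60 (adjusted p = 0.0165), a call lost without XY control replicate 1 or 2 or XX replicate 1 (up to 0.0539). Bub1b was also 0.63 in XY FOXL2+ against XX controls (adjusted p = 0.0165, lost in 4 of 20 settings, XX replicate 1 or 4 left out among them, up to 0.0934). The checkpoint kinase Bub1, singled out after its values were seen, went the other way in sign from its list in XX gonads. Bub1 read 13.26, 14.12, 13.49 and 13.49 in XY FOXL2+, 13.57, 13.82, 13.81 and 13.73 in XX controls and 13.13, 13.41, 13.13 and 13.43 in XY controls, and every XX array lay above every XY control. Its difference of 0.46 between XX and XY controls did not pass (SE 0.16, adjusted p = 0.0629). The XY FOXL2+ arrays lie outside this comparison but share its SE. Without XY FOXL2+ replicate 1 or 2, 1 of the 31 mitosis genes was higher in XX than in XY controls. Of all clusters, 8.44% and 7.66% were then higher.

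Genes of the spindle motors and of cytokinesis had 4 of 7 members lower in XX than in XY controls. Prc1, which bundles the midzone microtubules, was -0.98 (adjusted p = 0.000125), and Racgap1, a subunit of the centralspindlin complex, was -0.81 (adjusted p = 3.16e-05). The motor Kif20a was -0.69 (adjusted p = 0.00414) and the bipolar kinesin Kif11 -0.47 (adjusted p = 0.0245), the call of Kif11 being lost under quantile normalization and without XY control replicate 1 or 2 or XX replicate 1 or 4 (up to 0.078). Prc1 and Racgap1 were 0.64 and 0.54 higher in XY FOXL2+ than in XX controls (adjusted p = 0.00984 and 0.00291). Kif23, Ect2 and Anln passed in no comparison, and Kif23, the motor partner of Racgap1, was -0.06 in XX against XY controls. Ect2 and Anln were 0.07 and -0.29 there (SE 0.10 each, adjusted p = 0.75 and 0.0673).

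**Figure D3:**
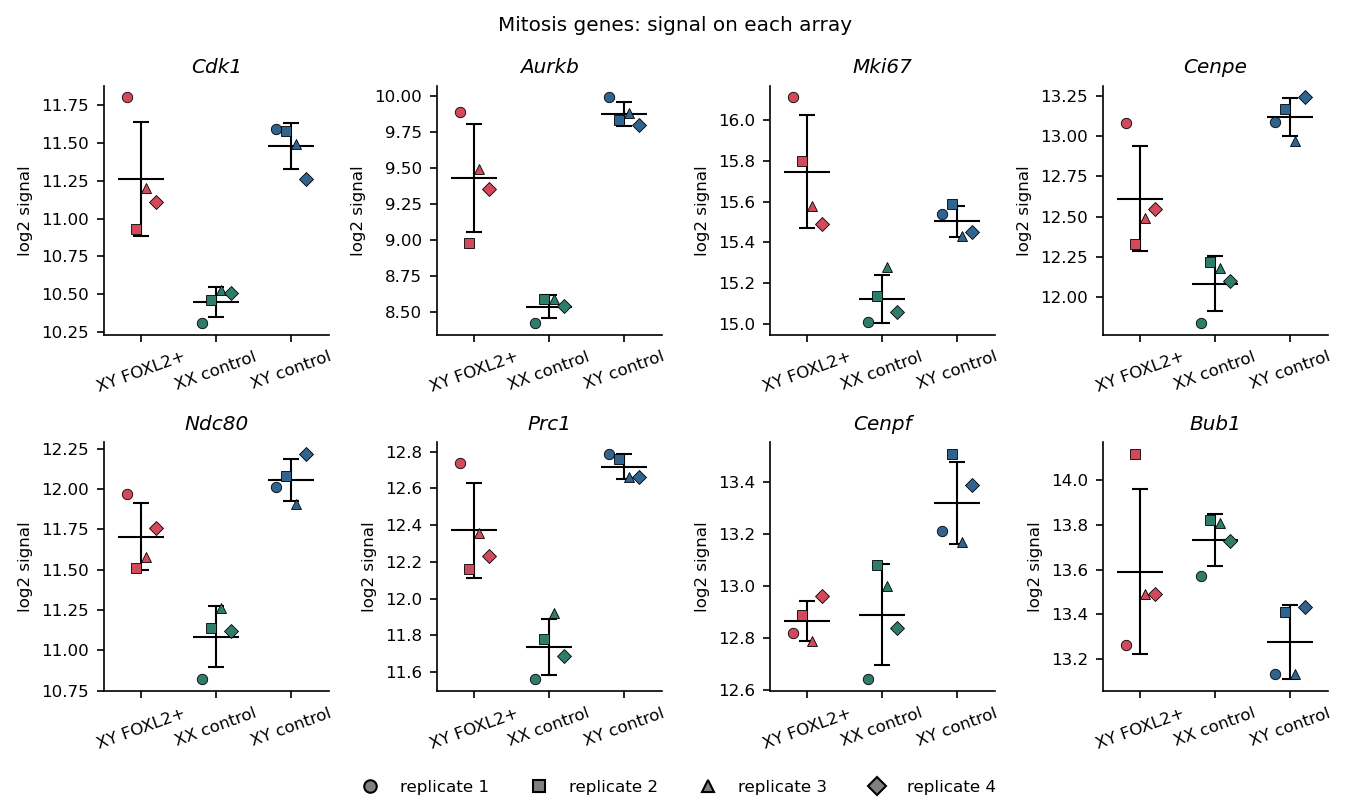
Log2 signal (y axis) on each array for mitosis genes of the report, XY FOXL2+, XX control and XY control from left to right; each marker is 1 replicate and the horizontal line with its bar is the group mean ± SD. Cdk1 is 10.31 to 10.53 in XX controls and 11.26 to 11.59 in XY controls, with the XY FOXL2+ arrays at 10.93 to 11.80.

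A single array set the counts of mitosis genes between XY FOXL2+ and XY control gonads. Without XY FOXL2+ replicate 1, 10 mitosis genes were lower and 0 higher, against 1 and 0 with it, and the median of the class was -0.28 against -0.16. Over all clusters 2.94% were then higher and 4.49% lower. The 10 genes were Cenpe at -0.67, Aurkb at -0.60, Aurka at -0.51, Prc1 at -0.47, Cenpf at -0.45, Ndc80 at -0.44, Cdk1 at -0.40, Kif20a at -0.38, Cenpa at -0.37 and Incenp at -0.31. Replicate 1 was the highest of its group for 26 of the 31 mitosis genes. Leaving it out thus lowered the class by selection, and these calls are no support for a fall. The count higher than in XX controls was 12 of 31 without replicate 1 and 11 with it. With replicates 3 and 4 left out instead, an alternative chosen after seeing the data, 1 mitosis gene (Mki67, at 0.46) was higher and 1 lower than in XY controls, with 4.63% of all clusters higher and 7.98% lower.

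DNA replication genes did not pass in any comparison at the full sample, although the 9 differences between XY FOXL2+ and XY control gonads were all above 0, from 0.08 to 0.53. Mcm2, a subunit of the MCM helicase, read 12.84, 12.19, 11.73 and 11.70 in XY FOXL2+, 11.79, 11.98, 12.04 and 11.89 in XX controls and 12.02, 12.23, 11.87 and 11.97 in XY controls. XY FOXL2+ replicate 1 stood above all other arrays and replicates 3 and 4 below all others, and the XX and XY ranges overlapped. The differences were 0.09 in XY FOXL2+ against XY controls (SE 0.20, adjusted p = 0.864), -0.10 in XX against XY controls (SE 0.20, adjusted p = 0.83) and 0.19 in XY FOXL2+ against XX controls (SE 0.20, adjusted p = 0.696). Pcna, the sliding clamp, read 13.42, 12.83, 12.49 and 12.43 in XY FOXL2+, 12.17, 12.47, 12.61 and 12.34 in XX controls and 12.49, 12.57, 12.40 and 12.42 in XY controls. Its XY FOXL2+ replicates 1 and 2 were above all control arrays and replicates 3 and 4 within their range. Pcna was 0.32 higher in mean in XY FOXL2+ than in XY controls without passing (SE 0.18, adjusted p = 0.366). In XX against XY controls it was -0.07 (SE 0.18, adjusted p = 0.862).

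The XY FOXL2+ arrays were also spread on the origin licensing and nucleotide genes. Cdc6, which loads the helicase, read 10.31, 9.14, 8.79 and 8.71 in XY FOXL2+, 8.81, 8.91, 8.87 and 8.66 in XX controls and 8.78, 8.77, 8.74 and 8.85 in XY controls. XY FOXL2+ replicates 1 and 2 lay above every control and replicates 3 and 4 within the range of the controls, at a mean difference of 0.45 from XY controls (SE 0.27, adjusted p = 0.384) and 0.43 from XX controls (SE 0.27, adjusted p = 0.436). Rrm2 read 12.73, 11.92, 11.32 and 11.24 in XY FOXL2+, 11.40, 11.63, 11.68 and 11.41 in XX controls and 11.52, 11.14, 11.18 and 11.27 in XY controls, with a difference of 0.53 from XY controls (SE 0.26, adjusted p = 0.281). Again replicates 1 and 2 exceeded every control. Cdt1, the other licensing factor, was 0.08 in XY FOXL2+ against XY controls (SE 0.16, adjusted p = 0.843) and by 0.01 between XX and XY controls (adjusted p = 0.98). The remaining subunits Mcm3, Mcm4, Mcm5 and Mcm6 were 0.25 to 0.41 above XY controls in XY FOXL2+, none of them past the test. For Mcm3 and Mcm5 every XX array lay above every XY control. Their differences of 0.25 and 0.31 between XX and XY controls did not pass (SE 0.17 each, adjusted p = 0.393 and 0.296). That SE comes from the fit of all 12 arrays, in which XY FOXL2+ had the widest spread. The median SD of the 9 genes was 0.447 in XY FOXL2+, 0.11 in XX and 0.114 in XY controls. Without XY FOXL2+ replicates 3 and 4, left out after seeing the data, 1 of the 9 was higher in XX than in XY controls. Of all clusters, 7.74% were then higher. With any 1 XY FOXL2+ array left out, 0 of the 9 were called in that comparison.

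Leaving out XY FOXL2+ replicates 3 and 4, an alternative chosen after seeing the data, moved 7 of the 9 replication genes past the threshold between XY FOXL2+ and XY controls, all higher, with a class median of 0.59 against 0.29. They were Rrm2 at 1.05, Cdc6 at 0.94, Mcm5 at 0.79, Pcna at 0.65, Mcm4 at 0.59, Mcm3 at 0.58 and Mcm6 at 0.55. The share of all clusters higher was then 4.63%. Replicates 3 and 4 had the lowest replication levels of XY FOXL2+, at 11.31 and 11.26 against 12.34 and 11.72 in replicates 1 and 2. Leaving them out thus raised the class by selection, and these calls are no support for a rise. Without XY FOXL2+ replicate 1 the class had 0 of 9 called and a median of 0.10. Beside these values, replicates 3 and 4 had granulosa marker sums of 8.85 and 7.83 and replicates 1 and 2 of 23.4 and 37.9 (units of 1000), the meiotic sum of replicate 1 was the lowest of the group at 34.7, and the part of this difference in the result was not tested.

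**Figure D4:**
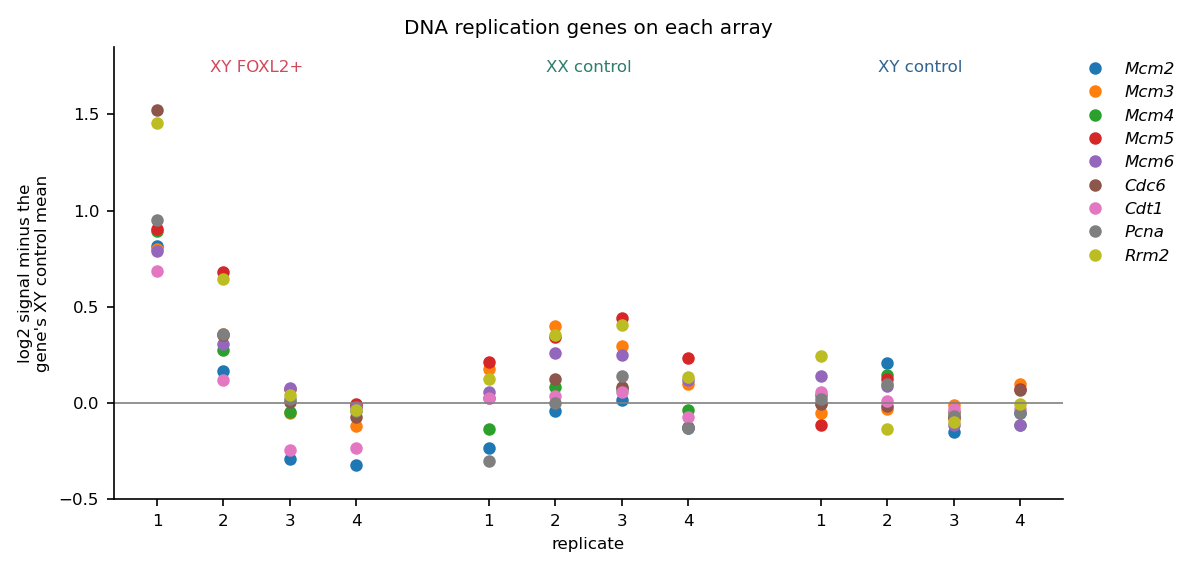
Log2 signal of the 9 DNA replication genes on each array minus the mean of the gene in XY controls (y axis), by replicate of XY FOXL2+, XX control and XY control gonads. All 9 genes are highest in XY FOXL2+ replicate 1, and the class averages 11.31 and 11.26 in replicates 3 and 4 against 11.36 in XY controls.

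The largest difference among the 47 genes in each comparison was that of a G1 regulator. Cdkn1b, which codes for the CDK inhibitor p27, read 11.83, 12.52, 11.35 and 11.08 in XY FOXL2+ gonads, 12.64, 12.48, 12.60 and 12.56 in XX controls and 10.03, 9.81, 9.92 and 9.85 in XY controls. All arrays of XY FOXL2+ and XX lay above all XY controls, and XY FOXL2+ replicate 2 reached the XX range while the other 3 were below it. Cdkn1b rose by 1.79 in XY FOXL2+ against XY controls (SE 0.23, 3.46-fold higher, adjusted p = 0.000372, exact permutation p = 0.0286) and by 2.67 in XX against XY controls (SE 0.23, 6.36-fold higher, adjusted p = 6.98e-06). Between XY FOXL2+ and XX controls the difference was -0.88 (SE 0.23, adjusted p = 0.0432), with an exact permutation p of 0.0571 and overlapping ranges, a call lost in 14 of 20 settings, with an adjusted p up to 0.234, and on the omission of any 1 array but XY FOXL2+ replicate 2. The granulosa marker sums of XY FOXL2+ replicates 1 to 4 were 23.4, 37.9, 8.85 and 7.83 (units of 1000), and their part in the Cdkn1b level was not tested.

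Cdkn1a, the gene of the CDK inhibitor p21, read 8.98, 9.56, 8.25 and 8.20 in XY FOXL2+, 11.14, 10.51, 10.76 and 10.72 in XX controls and 8.10, 8.44, 8.09 and 8.08 in XY controls. Every XX array was above every array of the other groups, and the XY FOXL2+ arrays overlapped the XY controls, replicates 1 and 2 being higher. It was 2.61 higher in XX than in XY controls (SE 0.26, 6.09-fold, adjusted p = 1.91e-05) and fell by 2.04 in XY FOXL2+ against XX controls (SE 0.26, 4.10-fold lower, adjusted p = 0.000798). The 0.57 between XY FOXL2+ and XY controls did not pass (SE 0.26, adjusted p = 0.235), and was 1.09 and past the threshold without XY FOXL2+ replicates 3 and 4. These arrays, left out after seeing the data, were the lowest of the group for Cdkn1a. What signal a silent gene gives is not known for a single cluster, and a fold against a low signal may be understated.

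Cyclin E genes, whose products start DNA synthesis with CDK2, were higher in XY FOXL2+ and in XX than in XY controls. Ccne2 read 10.90, 11.43, 11.00 and 10.95 in XY FOXL2+, 11.10, 11.04, 11.32 and 10.97 in XX controls and 9.64, 9.67, 9.52 and 9.56 in XY controls. The XY FOXL2+ and XX ranges overlapped and both lay above all XY controls. Ccne2 rose by 1.47 in XY FOXL2+ against XY controls (SE 0.12, 2.78-fold, adjusted p = 8.91e-06) and by 1.51 in XX against XY controls (SE 0.12, 2.85-fold, adjusted p = 3.89e-06). The difference between XY FOXL2+ and XX was -0.04 (SE 0.12, adjusted p = 0.909). Ccne1 read 10.47, 9.85, 8.96 and 8.84 in XY FOXL2+, 9.68, 9.81, 9.83 and 9.49 in XX controls and 8.33, 8.36, 8.15 and 8.11 in XY controls. All XY FOXL2+ and XX arrays exceeded all XY controls, with XY FOXL2+ replicates 1 and 2 above and replicates 3 and 4 below the XX range. It rose by 1.29 in XY FOXL2+ against XY controls (SE 0.28, 2.45-fold, adjusted p = 0.0136, lost when only these groups were fitted, at 0.0585) and by 1.46 in XX against XY controls (SE 0.28, 2.76-fold, adjusted p = 0.00258). E2f1, the transcription factor that the retinoblastoma protein binds, had -0.17 and -0.23 in XY FOXL2+ and XX against XY controls and passed in neither (adjusted p = 0.235 and 0.0567).

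D-type cyclins, the sensors of growth signals in G1, moved by less. Ccnd2 read 13.92, 13.77, 13.61 and 13.63 in XY FOXL2+, 13.72, 13.52, 13.31 and 13.45 in XX controls and 13.23, 13.24, 13.27 and 13.19 in XY controls. The XY controls lay below all arrays of both other groups, whose ranges overlapped. Ccnd2 rose by 0.50 in XY FOXL2+ against XY controls (SE 0.10, 1.41-fold, adjusted p = 0.0078, exact permutation p = 0.0286), and the 0.27 in XX against XY controls did not pass (SE 0.10, adjusted p = 0.085). Ccnd3 read 8.66, 8.63, 8.46 and 8.50 in XY FOXL2+, 8.49, 8.49, 8.41 and 8.40 in XX controls and 8.85, 8.74, 8.82 and 8.83 in XY controls, and all XY controls were above the rest. It fell by 0.36 in XX against XY controls (SE 0.08, adjusted p = 0.00485, lost under quantile normalization at 0.077), and the -0.25 in XY FOXL2+ against XY controls did not pass (SE 0.08, adjusted p = 0.0756).

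**Figure D5:**
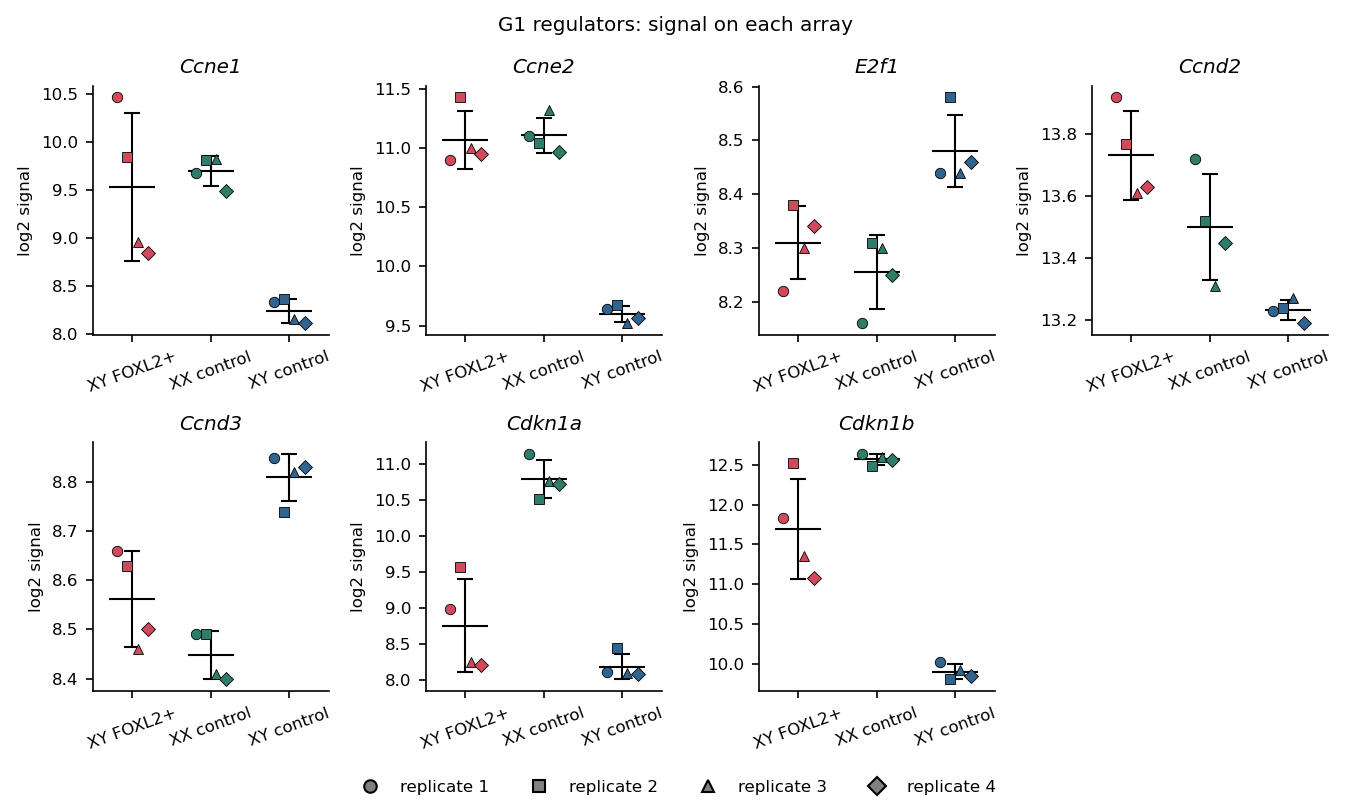
Log2 signal (y axis) on each array for the 7 G1 genes, XY FOXL2+, XX control and XY control from left to right; each marker is 1 replicate and the horizontal line with its bar is the group mean ± SD. Cdkn1b is 11.08 to 12.52 in XY FOXL2+, 12.48 to 12.64 in XX and 9.81 to 10.03 in XY controls, and Cdkn1a stands high in the XX controls alone, at 10.51 to 11.14.

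Other genes of the pathway, taken from wider lists of the same 3 classes, were counted without a test of the lists. Of 48 other mitosis genes measured, 4 were higher (8.33%) and 22 lower (45.8%) in XX than in XY controls. The counts were 3 (6.25%) and 2 (4.17%) in XY FOXL2+ against XY controls, and 7 (14.6%) and 0 in XY FOXL2+ against XX controls. Of all clusters above the median signal, 12% were higher and 16.6% lower in XX than in XY controls. These shares were 3.88% and 8.06% in XY FOXL2+ against XY controls, and 4.61% and 4.72% in XY FOXL2+ against XX controls. The largest in size among those called in XX against XY controls were Ccnb3, a B-type cyclin, at 1.37 (adjusted p = 0.0257), Cdc25c, the phosphatase that activates CDK1, at -1.30 (adjusted p = 0.000564), Aspm, a spindle pole protein, at -1.16 (adjusted p = 0.00055), and Dlgap5, a spindle protein, at -1.05 (adjusted p = 0.00019). Aspm was 1.23 higher in XY FOXL2+ than in XX controls (adjusted p = 0.00196), and Cdc25c, Pbk and Nusap1 were 0.77, 0.76 and 0.69 higher. Between XY FOXL2+ and XY controls the 5 called genes were Cenpm at 0.49, Cenpk at 0.33, Mad2l2, a relative of MAD2 named here after its value was seen, at 0.32, Pttg1, the separase inhibitor securin, at -0.37, and Wee1, the kinase that holds CDK1 back, at -0.35, with adjusted p from 0.0178 to 0.0489.

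Other replication genes had 10 higher (23.3%) and 4 lower (9.3%) of 43 in XX than in XY controls. The counts were 2 (4.65%) and 0 in XY FOXL2+ against XY controls, and 2 (4.65%) and 1 (2.33%) in XY FOXL2+ against XX controls. Apart from the share higher in XX than in XY controls, these are near or under the shares of all clusters above the median signal. Asf1b, a histone chaperone, was 1.28 higher in XY FOXL2+ and 1.47 higher in XX than in XY controls (adjusted p = 0.000569 and 6.94e-05). Orc1, the largest subunit of the origin recognition complex, was 0.88 higher in XY FOXL2+ and 1.59 higher in XX than in XY controls (adjusted p = 0.0064 and 3.18e-05), and -0.71 in XY FOXL2+ against XX controls (adjusted p = 0.0262). Gins3 was 0.57 higher and Mcm10 0.57 lower in XX than in XY controls (adjusted p = 0.00742 and 0.0453).

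Other G1 genes had 7 higher (25%) and 7 lower (25%) of 28 in XX than in XY controls. The counts were 1 (3.57%) and 2 (7.14%) in XY FOXL2+ against XY controls, and 5 (17.9%) and 1 (3.57%) in XY FOXL2+ against XX controls. The shares in XY FOXL2+ against XY controls were under those of all clusters above the median signal (3.88% and 8.06%). Cdk6, a kinase partner of the D cyclins, was 1.30 higher in XY FOXL2+ and 1.17 higher in XX than in XY controls (adjusted p = 0.000342 and 0.000262). Cdkn1c, the CDK inhibitor p57, was 1.92 higher in XX than in XY controls (adjusted p = 0.00205). The repressors E2f6 and E2f7 fell by 0.71 and by 0.40 in XY FOXL2+ against XY controls (adjusted p = 0.0013 and 0.0158), and by 0.83 and by 0.92 in XX against XY controls (adjusted p = 0.000138 and 1.92e-05). Against XX controls, E2f8, Cdkn2c, Btg1 and Rbl1 were 0.77, 0.72, 0.60 and 0.59 higher in XY FOXL2+, with adjusted p from 0.00527 to 0.00778.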

How the data were processed

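RNA of 12 fetal mouse gonad samples was measured on the Affymetrix Mouse Transcriptome Array 1.0 after WT Plus amplification, per the labels' protocols. The deposited values were taken as log2 signal, since they run from 2.54 to 19.5 with array medians of 6.15 to 6.30. The sources used here do not give the log base, how background was corrected, how probes were summarized and normalized, or the genome build, and another base would rescale every difference and leave the tests as they are. The authors' table has 72688 rows. After 6732 control rows were left out, 65956 transcript clusters entered the test, with no signal filter: 31258 have 1 symbol, 1492 several and 33206 none here. Symbols came from the platform annotation, with 1152 older ones updated through RefSeq. The table has no detection calls. The 47 measured genes had means over the 12 arrays of 7.70 (Birc5) to 15.46 (Mki67), the median cluster 6.23. Y-linked genes, silent in XX controls, read 5.99 to 6.94 there.

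A single limma fit over the 12 arrays (limma 3.58.1, R 4.3.3, lmFit and trended eBayes) left 9 residual degrees of freedom. All tests are two-sided, with Benjamini-Hochberg adjustment over all clusters and a threshold of 0.05. Genes described per array were also compared by exact permutation over 70 assignments of 4 against 4 arrays. The precision is limited by 4 arrays a group. The script was tested on simulated data. Alternatives were quantile normalization, clusters above the median signal, only the groups compared, no trend, array weights, a replicate block, the mean over clusters of a gene, leaving out each array and, chosen after seeing the data, leaving out XY FOXL2+ replicates 3 and 4.

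The genes and lists were chosen with earlier results of these data known. Genes past the threshold are named with their difference, up to 12 per class and comparison by size, as are members of roles with 3 or fewer genes. Values per array are given for the 2 largest called genes of each class and comparison, and always for Mki67, Cdk1, Mcm2, Pcna, Ccnd2, Ccnd3, Cdkn1a and Cdkn1b. Cdc6, Rrm2, Bub1, Ccne1 and Ccne2, where not covered by this rule, were chosen after their values were seen. Up to 4 other pathway genes are named per list and comparison.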

Additional observations from a re-analysis of the deposited data

Results flagged for a closer look

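Within a group of 4 arrays, 1 array stood far from the other 3 for 12 of the 141 combinations of a gene and a group, by Dixon's criterion, and chance gives about 1 in 20 groups. Of these, 6 lie in XY FOXL2+, 5 of them in replicate 1, 2 in XX controls and 4 in XY controls. XY FOXL2+ replicate 1 was the highest of its group for Ccna2 (13.71, the next array at 13.07), Plk1 (13.58, next 12.74), Aurka (11.87, next 10.99), Nuf2 (11.78, next 11.28) and Kif11 (14.58, next 14.08). XY FOXL2+ replicate 2 was the lowest for Racgap1 (9.51, next 9.72). Among XX controls, replicate 3 was the highest for Aurka (10.72, next 10.37) and replicate 1 the lowest for Cenpa (9.51, next 9.73). Among XY controls, replicate 1 was the highest for Incenp (11.31, next 11.11), replicate 3 the lowest for Bub1b (11.74, next 11.88), and replicate 2 the highest for E2f1 (8.58, next 8.46) and for Cdkn1a (8.44, next 8.10).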

How the results depend on the processing

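Of the genes called, 3 of 5 stayed past the threshold in every setting between XY FOXL2+ and XY controls, 19 of 26 between XX and XY controls and 6 of 13 between XY FOXL2+ and XX controls, and no difference changed sign past the threshold. The 4 genes higher in XY FOXL2+ than in XY controls became 13 without XY FOXL2+ replicates 3 and 4, chosen after seeing the data. Of the 13, 7 are replication genes, whose mean level was lowest of XY FOXL2+ in these arrays. The 1 gene lower became 4 among clusters above the median signal, 2 with no intensity trend, 5 with array weights and 0 to 11 with 1 array left out. Against XX controls, the 11 genes higher in XY FOXL2+ became 7 with only the groups compared, and 8 to 15 with 1 array left out, and the 2 lower became 1 with only the groups compared, 1 without XY FOXL2+ replicates 3 and 4, and 1 to 2 with 1 array left out. Between XX and XY controls, the 4 genes higher and 22 lower became 6 and 25 without XY FOXL2+ replicate 1 (8.44% and 12.4% of all clusters). They became 5 and 20 without XY FOXL2+ replicate 2 (7.66% and 10.5% of all clusters). Of the 7 G1 genes, 5 were higher and 2 lower in XX than in XY controls without replicate 1, against 4 and 1 with it. In within-group SDs, the G1 level of XY FOXL2+ minus XY control was 3.87 on mean log2 values and 2.54 on z-scores, that of XX minus XY control 5.89 and 2.82, and that of XY FOXL2+ minus XX control -2.02 and -0.29. The causes were not tested. A fit of only the groups compared called 809 clusters higher and 1891 lower for XY FOXL2+ against XY controls, where the fit of all arrays called 1621 and 3077, and 944 and 972 for XY FOXL2+ against XX controls, where the other called 1891 and 1744. For XX against XY controls the calls rose instead, to 6002 and 8719 from 4727 and 6732 in the fit of all arrays. Array weights gave 3668 and 3084 in XY FOXL2+ against XX controls. Quantile normalization gave 2184 higher and 2656 lower for XY FOXL2+ against XY controls, and 6116 and 5385 for XX against XY controls, where the values as deposited gave 4727 and 6732.

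The sources used here do not say whether the replicate numbers pair the samples. Between XY control and either other group, same-numbered arrays correlated at -0.09 to 0.08, and 0 of 8 arrays agreed best with their own number. Between XY FOXL2+ and XX control the correlations were 0.18, 0.01, 0.07 and 0.11, and 7 of 8 arrays agreed best with their own number. A batch shared by same-numbered arrays of XY FOXL2+ and XX control was not tested. With the replicate block, 4 genes were higher and 1 lower for XY FOXL2+ against XY controls, 5 and 20 for XX against XY controls, and 9 and 1 for XY FOXL2+ against XX controls.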
